A study of Mus musculus with 28 samples.

Results

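The cytosolic ribosomal protein genes were taken as every row of the deposited gene tables whose name is Rpl or Rps followed by digits and optional letters, together with Rplp0, Rplp1, Rplp2 and Rpsa, leaving out the Rps6k kinases and names of pseudogenes. The rule found 89 of 24984 rows. The rows of Rps27rt and Rps27 held the same value in 12 of 12 libraries, so the pair was counted once and 88 genes with values of their own remained. Of these, 77 encode the established proteins of the ribosome (31 of the small subunit, 43 of the large subunit and 3 of the stalk), and 11 are other members: Rpl3l, Rpl7l1, Rpl10l, Rpl22l1, Rpl32l, Rpl36al, Rpl37rt, Rpl39l, Rps4l and Rps27l, which carry names of relatives of established members, and Rps19bp1, whose product binds Rps19 and is not itself a ribosomal protein.

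The libraries are of nascent RNA from CCE28 mouse embryonic stem (ES) cells, the line named in the growth protocol (the treatment protocol also names CJ7 cells). Newly made RNA was labelled with bromouridine (Bru-seq) in wild-type (WT) cells and in cells null for Elongin A (EloA), the transcriptionally active subunit of the elongation factor Elongin. Both genotypes were grown on fibroblast feeders in medium with LIF and 2 kinase inhibitors, and were depleted of the feeders shortly before labelling. Whether the null line is 1 clone is not given in the sources used here. Steady-state cells received 2 mM bromouridine for 10 min with no inhibitor. In the recovery experiments, cells of both genotypes were first held for 60 min in 1 µM flavopiridol, an inhibitor of the kinase that releases paused RNA polymerase II, then washed and labelled with 2 mM bromouridine for 5 min or 10 min. Each genotype had 2 libraries in each of the 3 conditions, 12 in all, and 16 further chromatin samples of the series were not analysed here. The first EloA null steady-state library is named as null but carries a wild-type genotype label; it was grouped by its name, and the counts of members past each threshold, above 0 and higher without overlap were also run without it.

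Each ribosome holds 1 copy of nearly every one of these proteins, with the acidic stalk proteins Rplp1 and Rplp2 as the exception, so the cell makes the proteins in near-equal amounts. The genes lie on many chromosomes and are short, and many carry small nucleolar RNA (snoRNA) genes in their introns, whose products guide modification of ribosomal RNA. In many of them transcription starts within a run of pyrimidines, a feature that also places the messenger RNAs under translational control. ES cells divide rapidly and make ribosomes at a high rate.

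The start regions are shown first because a run of pyrimidines is known from many, but not all, of these genes. RefSeq windows on GRCm38.p6, running from 250 bases before to 50 bases from an annotated start, were at hand for 67 of the 88 genes (79 windows). Printed here are 40 bases before and 20 bases from the start, with the longest run of C and T that touches the 10 bases on either side of the start in capitals. The 2 members on chromosome 14 are shown because they had the largest EloA null to WT ratios in steady state.
Rpl15 (chr14:18270967-18271026, minus strand): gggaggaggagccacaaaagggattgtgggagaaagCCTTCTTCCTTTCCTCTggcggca
Rps24 (chr14:24490638-24490697, plus strand, first of 2 listed starts): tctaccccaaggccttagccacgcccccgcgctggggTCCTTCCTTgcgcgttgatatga
The next 4 belong to the most highly transcribed members that have a window.
Rps12 (chr10:23787190-23787249, minus strand): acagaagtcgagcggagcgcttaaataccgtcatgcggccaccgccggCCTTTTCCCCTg
Rpl13a (chr7:45128726-45128785, minus strand): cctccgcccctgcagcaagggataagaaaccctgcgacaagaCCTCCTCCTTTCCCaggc
Rps9 (chr7:3704001-3704060, plus strand): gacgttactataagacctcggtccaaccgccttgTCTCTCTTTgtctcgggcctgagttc
Rpl4 (chr9:64173347-64173406, plus strand): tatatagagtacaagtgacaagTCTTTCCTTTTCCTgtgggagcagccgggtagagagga
The last 3 belong to the members with the highest nascent RNA at 10 min of recovery relative to steady state.
Rps27l (chr9:66946046-66946105, plus strand, first of 2 listed starts): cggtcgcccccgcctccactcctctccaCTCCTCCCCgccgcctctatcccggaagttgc
Rpl5 (chr5:107900488-107900547, plus strand): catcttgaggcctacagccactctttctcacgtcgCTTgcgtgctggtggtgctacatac
Rps7 (chr12:28635934-28635993, minus strand): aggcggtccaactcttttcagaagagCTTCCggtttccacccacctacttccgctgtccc

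The run was 17 bases long at Rpl15, 14 at Rpl13a and Rpl4, 11 at Rps12 and 9 at Rps24, Rps9 and Rps27l, 5 at Rps7 and 3 at Rpl5. These lengths depend on the start used: the annotated spans of Rps12, Rps9, Rpl5 and Rps27l begin upstream of it, and at Rpl5 a longer run of C and T, in lower case above, lies at the start of the span (107900508), outside the bases searched. The run held the start itself at Rpl15, Rps24 and Rps9, and lay before or after it at the other genes printed. A run of at least 8 bases touched the 10 bases on either side of the start in 31 of the 79 member windows (39.2%). The shares were 13.6% of the 10402 windows of genes tested in steady state and 13.7% of all 32851 windows. How many of these runs held the start was not counted. Searched on both strands over the whole window, the letters CCGGAAG, the core bound by ETS-family factors, were in 27 member windows (34.2%), against 19.7% of the windows of tested genes and 8.86% of all windows. The letters GCCATNTT, the core of YY1 sites, were in 21.5% of member windows, 9.58% of those of tested genes and 6.05% of all. CTCTTTC, which overlaps the pyrimidine runs, was in 26.6%, 7.01% and 8.16%, respectively. The TATA box letters TATAAA were in 10.1%, 6.84% and 13.6%, and the E-box CACGTG in 10.1%, 10.9% and 7.15%. These are matches of letters in a window and no measure of binding.

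Depth came to 23138348 to 27954234 reads per steady-state library, 9857527 to 17272751 at 5 min and 18820714 to 28547356 at 10 min of recovery, as recovered from the steps between the deposited values. Values are RPKM (reads per kilobase of counted length, scaled to library size). For 86 of the 89 rows, values multiplied by library size and counted length gave whole reads in all 12 libraries, within a tolerance of 0.02 reads. The counted length was that of the introns with 1 exon base on each side, or of the exon for the intronless Rpl10l, Rpl32l and Rps4l. A level here is thus close to one per intron length. The median number of reads behind a member was 272 in the shallowest library and 1230 in the deepest. Of 15 ES cell markers 14 or 15 were over 0.5 RPKM in each group, and they summed to 234 to 398 RPKM over the 12 libraries. Of 17 feeder fibroblast markers 3 or 4 were over 0.5 RPKM (sum 10.7 to 15.7 RPKM), of 7 neural markers at most 2 (0.479 to 2.29 RPKM) and of 7 endoderm markers none (0.139 to 0.733 RPKM), with Neurog2 at 0 in every group and Foxa2 and Afp at 0 in every group but EloA null steady state. Eloa itself was higher in both null libraries than in both WT libraries in each condition (1.18 and 1.16 RPKM in WT and 1.96 and 1.89 in null cells in steady state). Nascent RNA counted over a gene does not check a null allele, and the groups follow the names of the libraries. In bulk RNA of this kind, fewer cells of a type and less RNA per cell cannot be told apart.

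In unperturbed WT cells the ribosomal protein genes were among the most highly transcribed genes. Of the 88 members, 87 passed a mean of 0.5 RPKM, as did 10796 genes in all, and their median level was 17.1 RPKM against 1.91 RPKM over those 10796 genes. The median member stood at the 97.7th percentile of expressed genes, and 76 members were at or above the 90th percentile. RPKM is a level per counted length, so members counted over introns can be set side by side. Rpl10l, Rpl32l and Rps4l were counted over an exon, which is a different measure, and the counted length of Rplp2 and Rps19 was not recovered. The mean levels of established members ran from 3.39 RPKM (Rpl36) to 65.1 RPKM (Rpl3).

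Rpl3, a large subunit protein near the peptidyl transferase centre, had the highest level, 73.2 and 56.9 RPKM in the 2 WT libraries (65.1 ± 11.5, SD, n = 2). Rps12, a small subunit protein, followed with 55.2 and 49.1 RPKM. Both stood clear of the genes below them, Rpl13a (34.7 and 34.4 RPKM), Rps9 (34.7 and 33.8 RPKM) and Rpl4 (35.9 and 32.3 RPKM), whose ranges overlapped each other. Rpl3 and Rps12 each carry 3 annotated snoRNA genes, Rpl13a carries 4 and Rpl4 carries 5, while Rps9 has none annotated. Whether reads of these snoRNAs add to the levels was not tested. Rpl13a is also known for a role in translational control outside the ribosome, and Rpl4 lines the exit tunnel of the nascent chain. Over the whole order, the ranges of 75 of 87 neighbouring pairs overlapped, so most single steps were within the spread of 2 libraries.

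At the lower end, Rpl36, a large subunit protein, had 3.53 and 3.26 RPKM in WT, with 38 and 41 reads. The intronless Rpl32l had 1.91 and 2.06 RPKM, Rps19bp1 1.74 and 1.75 RPKM and Rpl37rt 0.734 and 0.575 RPKM. The muscle form of Rpl3, Rpl3l, was at 0.072 and 0.057 RPKM and was the only member under the limit in every condition. The 11 members outside the established set had a median of 4.19 RPKM, against 17.5 RPKM for the 31 small subunit genes and 18.02 RPKM for the 43 large subunit genes. Reads of Rpl10l, Rpl32l, Rpl36al and Rps4l may come from near-identical copies elsewhere, and their levels are uncertain. Rpl32l lies within Map7 and Rps4l overlaps Tmtc1, so reads of the longer gene can fall in them where strand was not used.

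**Figure D1:**
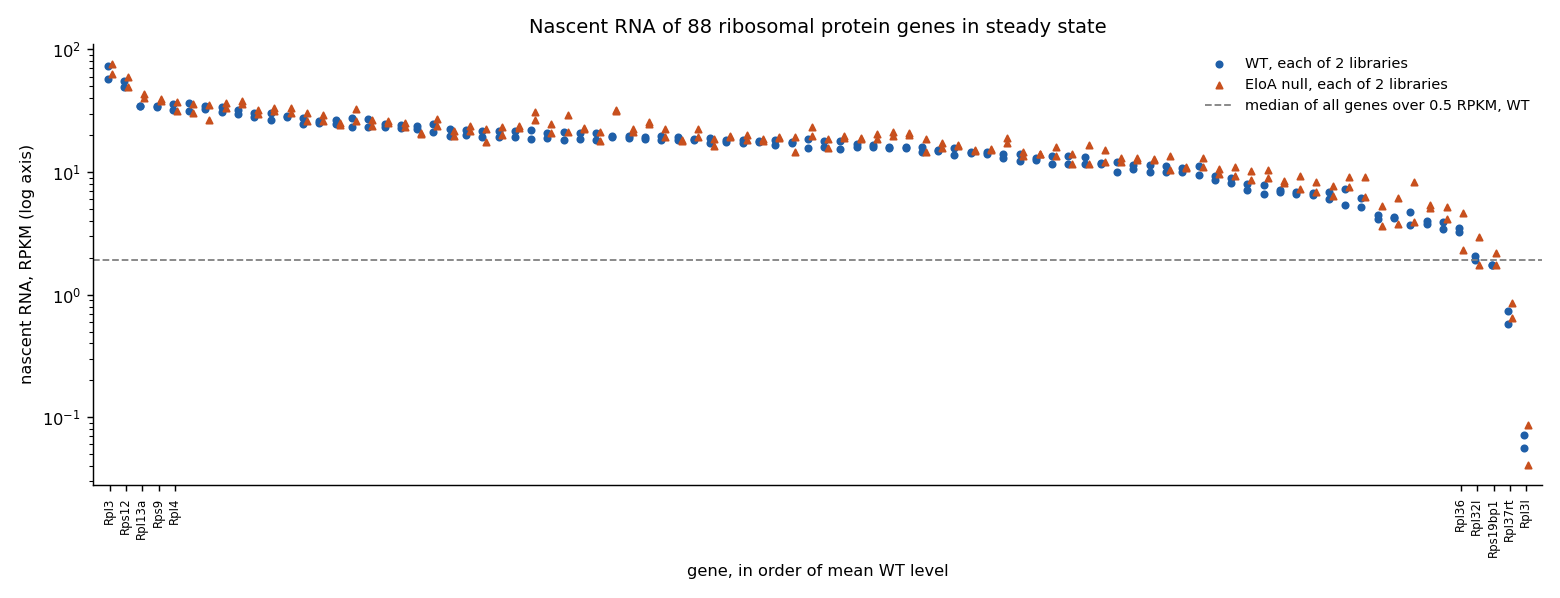
Nascent RNA of the 88 genes in steady state, in RPKM on a log axis, in order of the mean WT level, with the 5 highest and 5 lowest named; circles are the 2 WT and triangles the 2 EloA null libraries, and the dashed line is the WT median of all genes over 0.5 RPKM (1.91 RPKM). Rpl3 and Rps12 lead, and 4 members fall near or under the line.

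The stalk, which recruits the translational GTPases, is built on Rplp0 with Rplp1 and Rplp2 as its arms. Rplp1 had 22.4 and 23.6 RPKM in WT, Rplp0 10.0 and 11.5 RPKM and Rplp2 10.1 and 11.2 RPKM, so the ranges of Rplp0 and Rplp2 overlapped and Rplp1 lay above both. Rpsa, a small subunit protein that also goes by the name of laminin receptor, had 30.5 and 26.8 RPKM. The X-linked Rpl36a had 13.5 and 11.6 RPKM, and its relative Rpl36al on chromosome 12 had 3.42 and 3.94 RPKM. Among established members, the 30 with an annotated snoRNA gene in their span had a median of 19.5 RPKM and the 47 without one had 17.4 RPKM. The snoRNA genes numbered 59 in all, and whether reads of snoRNAs add to their hosts was not tested.

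The first comparison asks whether steady-state transcription of these genes differs in the absence of EloA. Most members were slightly higher in EloA null cells: the median log2 fold change (null over WT, on log2(RPKM + 0.1)) was 0.17 over 87 tested members and 0.03 over all 11347 tested genes, with 76 members and 56.2% of all genes above 0. No member passed an adjusted p of 0.05 by limma with Benjamini-Hochberg adjustment over all tested genes, and neither did any other gene (background 0%). At an unadjusted p under 0.05 there were 9 of 87 members (10.3%), all higher in null cells, against a background of 18.4% of all genes in either direction, 14.1% higher and 4.22% lower. This count was 3 or 4 without the first or second WT library and 14 or 15 without the first or second null library. Past 1.5-fold there was 1 member (1.15%), Rpl15, against a background of 7.21% of genes higher, and no member lower, against 2.1%.

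Without the first null library, the one with a wild-type genotype label, 68 members were above 0. In 46 of the 87 members (52.9%) both EloA null libraries were above both WT libraries, against 32% of all tested genes, and in 1 (Rplp1) both were below, against 21.4%. Without the first null library 60 members were higher without overlap. With the median of each library set equal, 30 members were higher and 3 lower without overlap, against 26% and 31% of all genes. The small subunit had 21 of 31 members higher without overlap (median log2 fold change 0.18) and the large subunit 20 of 43 (0.11). The 3693 tested genes spanning under 10 kb had a median of 0.17, the 640 of them with a WT level over 5 RPKM 0.09, and the 4066 genes over 30 kb -0.05. Both null libraries were above both WT libraries in 1542 of these 3693 short genes and in 229 of the 640. They were below in 294 and 54. Members are short, with a median span of 3179 bases against 18940 for tested genes. With the trend over length removed from each library, the member median was -0.04 and 29 of 87 members were above 0, and with the trend over GC content removed it was 0.03 with 54 above 0. Among the 15 ES cell markers tested the median was 0.28, with 13 above 0, 8 higher and 2 lower without overlap and 3 past 1.5-fold, and their part in the members' difference was not tested. These markers had medians of -0.18 at 5 min and -0.02 at 10 min. Members varied less than other genes, with an interquartile range of 0.14 against 0.33 for all tested genes.

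Rpl15, a large subunit protein encoded on chromosome 14, had the largest ratio. It was at 19.6 and 19.2 RPKM in WT and at 32.2 and 31.7 RPKM in EloA null libraries. The null libraries lay clear of WT, with a log2 fold change of 0.71 ± 0.10 (SE) and an adjusted p of 0.105 by limma. Rps24, a small subunit protein and the other member on chromosome 14, was at 21.9 and 18.7 RPKM in WT and 30.7 and 26.8 RPKM in null libraries (log2 fold change 0.50 ± 0.14, limma adjusted p = 0.187). These groups did not overlap either.

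The member next in order was the intronless Rps4l, at 3.69 and 4.68 RPKM in WT and 3.90 and 8.25 RPKM in null libraries, which overlapped. Its log2 fold change of 0.44 ± 0.38 rested on the second null library and was -0.09 without it. At the other end, Rplp1 was at 22.4 and 23.6 RPKM in WT and 20.9 and 20.4 RPKM in null libraries (log2 fold change -0.15 ± 0.10, limma adjusted p = 0.451). Rpl30, of the large subunit, was at 34.5 and 32.6 RPKM in WT and 35.1 and 26.5 RPKM in null libraries, and Rps27, of the small subunit, at 17.5 and 17.3 RPKM against 14.6 and 19.2 RPKM. The last 2 overlapped and changed sign when a null library was left out.

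Both chromosome 14 members moved with their chromosome. The 416 genes tested on chromosome 14 had a median log2 fold change of 0.50 in steady state, and 97.6% of them were above 0, while the 10896 genes on other chromosomes had a median of 0.02. For the chromosome 14 genes, the median log2 deviation from the mean of each gene was -0.23 and -0.28 in the WT libraries. It was 0.27 and 0.22 in the null libraries, so the null library with a wild-type genotype label lay with the other null library here. Rpl15 was above 79.6% of the chromosome 14 genes and Rps24 above 51%. The same held in recovery: the chromosome 14 medians were 0.46 at 5 min (348 genes) and 0.51 at 10 min (385 genes), with Rpl15 above 59.8% and 65.2% and Rps24 above 47.1% and 44.7% of them. Without these 2 genes no member passed 1.5-fold in any condition, and the member median was 0.16 in steady state. Whether the number of copies of this chromosome differs between the cultures was not tested.

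**Figure D2:**
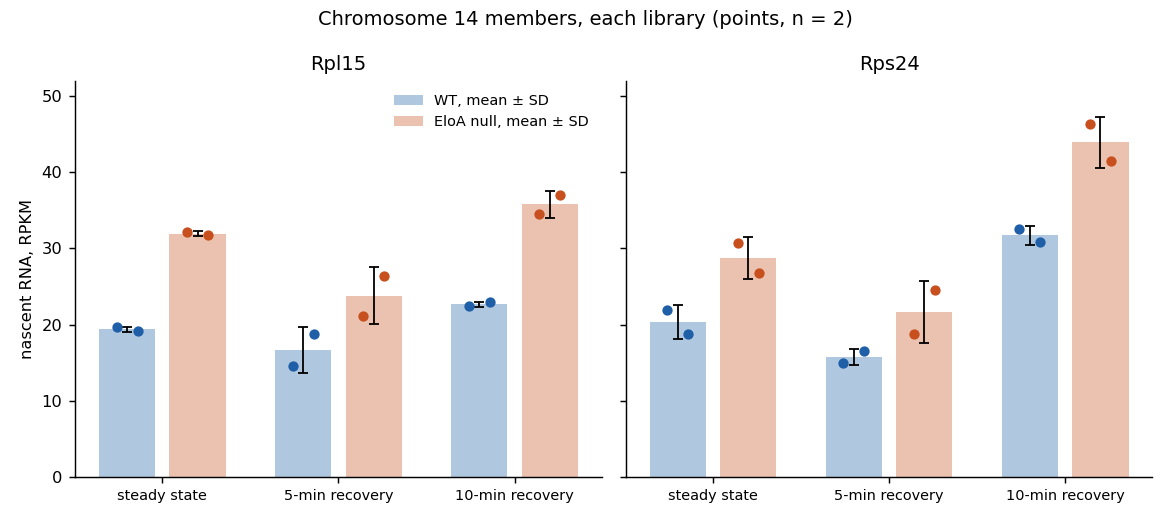
Nascent RNA (RPKM) of Rpl15 and Rps24 in each condition; bars are means, error bars SD and points the 2 libraries of each genotype. EloA null libraries lie above WT libraries in all 3 conditions for both genes.

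After 5 min of recovery from flavopiridol, the question is whether early transcription differs between genotypes. The members' median log2 fold change was -0.05 over 86 tested members, with 34 above 0 (39.5%), and -0.06 over all 8985 tested genes, of which 40.6% were above 0. No member passed the adjusted p by limma or 1.5-fold in either direction, against a background of 0% for the first and 5.4% higher and 6.72% lower for the second. At an unadjusted p under 0.05 there was no member, against 9.42% of all genes (4.54% higher and 4.87% lower). Both null libraries were above both WT libraries in 6 members (6.98%) and below in 6 (6.98%), against 15.4% and 25% of all genes, and with the library medians set equal in 9 and 2 members, against 21.7% and 20%. Single libraries set these counts: without the first null library 66 members were above 0 and 50 were higher without overlap, and without the second 12 and 6. Without the first or second WT library 30 or 44 members were above 0 and 11 or 16 higher without overlap. The libraries of this condition were the shallowest, and the median SE of a member's log2 fold change was 0.21, compared with 0.12 in steady state and 0.11 at 10 min.

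Rpl15 and Rps24 again had the largest ratios. Rpl15 was at 14.5 and 18.8 RPKM in WT and 21.2 and 26.4 RPKM in null libraries (log2 fold change 0.52 ± 0.23, limma adjusted p = 0.567), and Rps24 at 15.0 and 16.5 RPKM against 18.7 and 24.5 RPKM (0.44 ± 0.21). Neither pair of groups overlapped. Rpl39l, a relative of Rpl39 best known from the testis, was at 5.17 and 6.45 RPKM in WT and 7.72 and 7.48 RPKM in null libraries (0.39 ± 0.19), also without overlap.

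The smallest log2 fold changes were those of Rps27 (16.1 and 18.8 RPKM in WT, 9.41 and 17.9 RPKM in null libraries, -0.42 ± 0.34), Rps15 (2.345 and 2.50 against 1.44 and 2.28 RPKM, -0.40 ± 0.24) and Rpl38 (17.5 and 11.6 against 12.4 and 10.5 RPKM, -0.32 ± 0.26). The groups of Rps27 and Rpl38 overlapped. Those of Rps15, a small subunit protein, did not, on 20 to 46 reads a library. Rps27 turned to 0.04 without the first null library.

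After 10 min of recovery the members were again slightly higher in EloA null cells. The median log2 fold change was 0.18 over 86 tested members, with 81 above 0, against 0.06 over all 10241 tested genes, of which 58.5% were above 0. No member and no other gene passed the adjusted p by limma (background 0%). At an unadjusted p under 0.05 there were 18 of 86 members (20.9%), all higher in null cells, against a background of 20.5% of genes in either direction, with 15.2% higher and 5.25% lower. This count was 5 without the first and 11 without the second null library. Past 1.5-fold there was 1 member, Rpl15 (1.16%), against 9.41% of genes higher, and none lower, against 3.01%. Both null libraries were above both WT libraries in 53 members (61.6%) and below in 1 (Rps15a), against 33.5% and 21.8% of all genes. With the library medians set equal these were 38 and 1 members, against 25.4% and 31.9%.

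Genes under 10 kb had a median of 0.25 at 10 min (3467 genes), above that of the members, and those over 30 kb had -0.06. Within the short genes, the 1025 with a WT level over 5 RPKM had a median of 0.16. Both null libraries were above both WT libraries in 1697 of the 3467 short genes and in 518 of the 1025. They were below in 270 and 73. With the length trend removed, the member median was -0.11 and 27 of 86 members were above 0, and with the GC trend removed 0.02 and 48. The 77 established members had a median of 0.17, with 46 higher without overlap. The 9 tested members outside that set had 0.37, with 7 higher without overlap, against 33.5% of all tested genes. Of these 7, Rpl7l1 only just parted, and the levels of Rpl10l and Rpl36al are uncertain, as given above. Among them, Rpl22l1, a relative of Rpl22, was at 5.51 and 4.86 RPKM in WT and 6.76 and 7.48 RPKM in null libraries (log2 fold change 0.45 ± 0.12), Rpl7l1 at 8.32 and 10.995 against 12.3 and 10.999 RPKM (0.28 ± 0.17) and Rpl10l at 6.13 and 6.51 against 7.74 and 9.25 RPKM (0.41 ± 0.12).

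Rpl15 was at 22.5 and 22.9 RPKM in WT and 34.6 and 37.1 RPKM in null libraries (log2 fold change 0.65 ± 0.08, limma adjusted p = 0.095). It was the member with the smallest p in every condition. Rpl36al was at 3.96 and 2.60 RPKM in WT and 4.95 and 4.75 RPKM in null libraries (0.58 ± 0.22, SE). Rps24 was the member with the fifth highest ratio, at 32.6 and 30.8 RPKM in WT and 46.3 and 41.6 RPKM in null libraries (0.47 ± 0.09). None of these 3 genes overlapped between genotypes.

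The smallest log2 fold changes at 10 min were near 0. Rps15a, the longest member at 11774 bases, was at 57.5 and 53.9 RPKM in WT and 52.5 and 50.5 RPKM in null libraries (-0.11 ± 0.08), the only member lower without overlap. Rpl29 was at 3.64 and 4.02 RPKM against 3.10 and 4.04 RPKM, and Rps3a1 at 16.9 and 18.6 RPKM against 15.7 and 17.2 RPKM, both overlapping. Of the stalk genes, Rplp0 was at 13.5 and 13.9 RPKM in WT and 16.1 and 16.6 RPKM in null libraries (0.25 ± 0.08, limma adjusted p = 0.216). Rpsa (25.0 and 21.95 against 27.0 and 24.2 RPKM), Rplp1 (15.4 and 12.9 against 14.6 and 14.7 RPKM) and Rplp2 (13.0 and 18.9 against 18.5 and 17.5 RPKM) overlapped.

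**Figure D3:**
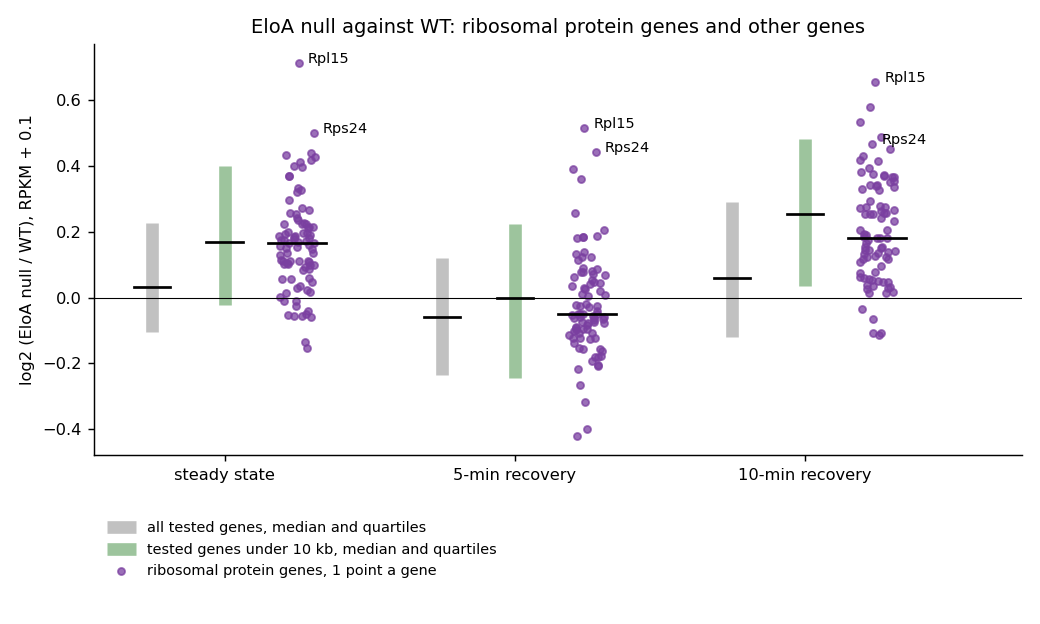
Log2 fold change (EloA null over WT, on RPKM + 0.1) in the 3 conditions; each point is 1 of 86 or 87 tested members, bars are the quartiles of all tested genes and of tested genes spanning under 10 kb, and black lines are medians. Members sit with the short genes in steady state and at 5 and 10 min their medians lie under those of the short genes; Rpl15 is the highest point each time.

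Among members grouped by what they are known for, the 9 that form the 5S particle or bind Mdm2, the regulator of p53, had medians of 0.10, -0.05 and 0.10 in steady state and at 5 and 10 min. The 17 whose human counterparts are mutated in Diamond-Blackfan anaemia had medians of 0.14, -0.05 and 0.14. No gene of either list passed the adjusted p by limma, and 1 of the second list, Rpl15, passed 1.5-fold in steady state and at 10 min.

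Fau lies outside the naming rule because its small subunit protein, eS30, is made as a fusion with a ubiquitin-like protein. It was at 4.87 and 5.64 RPKM in WT and 6.32 and 8.13 RPKM in null libraries in steady state, without overlap (log2 fold change 0.44 ± 0.16, limma adjusted p = 0.262). At 10 min Fau was at 4.30 and 4.64 RPKM against 6.995 and 6.16 RPKM, also without overlap (0.54 ± 0.11), and at 5 min the groups overlapped (0.15 ± 0.17).

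The proteins that act on the ribosome were compared as lists. The 42 translation factors had medians of 0.02, -0.08 and -0.03 in the 3 conditions, with 13, 2 and 9 genes higher and 9, 6 and 14 lower without overlap. Over all tested genes 32%, 15.4% and 33.5% were higher and 21.4%, 25% and 21.8% lower in this way. The ribosome assembly factors (58, 57 and 58 tested) had 0.02, -0.07 and 0.06, with 15, 2 and 18 higher and 15, 10 and 16 lower. These genes are longer, with median spans of 14456 and 12616 bases. The largest changes in the lists were those of Tpt1, a translationally controlled tumour protein, from 6.47 to 11.4 RPKM in steady state, and of Gnl3, the nucleolar GTPase nucleostemin, from 13.2 to 20.6 RPKM, and both genes lie on chromosome 14. Next came Eif3k (2.22 to 2.77 RPKM) and Rrs1 (1.60 to 2.45 RPKM) in steady state. At 5 min Tpt1 and Gnl3 were again among the largest, with Eif4a1 (44.9 to 30.9 RPKM) and Nop16 (1.77 to 1.09 RPKM), and at 10 min Tpt1, Gnl3, Eif3k and Nop10. None passed the adjusted p by limma.

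In a single fit of the 12 libraries, the genotype difference at recovery was compared with that in steady state. No member of 87 passed the adjusted p at 5 min (background 0.1%, 12 of 11975 genes) or at 10 min (0.00835%, 1 gene). At an unadjusted p under 0.05 there were 2 members at 5 min, Rpl32 and Rps15 (2.3% against 6.51%), and none at 10 min (against 1.64%). The comparisons share the steady-state libraries. The members' median difference was -0.18 at 5 min, with -0.11 over all genes, and 0.03 at 10 min, with 0.01 over all genes.

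The recovery libraries also show where nascent RNA of each gene stood relative to other genes. Labelling lasted 5 min in the 5-min libraries and 10 min in steady state, so recovery and labelling time cannot be told apart there. The tables were normalized separately, so each recovery ratio (log2 of recovery over the mean steady-state RPKM of the same genotype) is given less the median over all genes expressed in steady state, and without a test. All genes include long ones: those over 30 kb were at -0.50 in WT and -0.51 in null cells at 10 min. At 5 min the members' median ratio was 0.16 and 0.48 above that of all genes in the 2 WT libraries. In the 2 null libraries it was 0.20 and 0.47 above. The direction depended on the setting: it was -0.030 in WT and -0.075 in null cells without a filter on low genes, and -0.183 and -0.229 from summed RPKM. Genes under 10 kb were ahead by 0.26 and 0.31 in WT and by 0.14 and 0.21 in null libraries, so the ranges overlapped. At 10 min the members were ahead by only 0.01 and 0.13 in WT and by 0.11 and 0.14 in null libraries, less than the genes under 10 kb (0.26 and 0.23 in WT, 0.29 and 0.27 in null), and from summed RPKM they were at -0.299 and -0.281.

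The translation and assembly factors stood well above them. At 10 min the translation factors were ahead of all genes by 0.77 and 0.90 in WT and by 0.80 and 0.81 in null libraries, and the assembly factors by 0.80 and 1.01 and by 0.94 and 0.93. In each of the 4 libraries both lists lay above the members. Among the 15 translation factors spanning under 10 kb the values were 0.66 and 0.78 in WT and 0.64 and 0.79 in null libraries, and among the 23 such assembly factors 0.75 and 1.07 and 0.94 and 1.00. The 640 genes under 10 kb with a WT steady-state level over 5 RPKM were at 0.28 and 0.29 in WT and 0.36 and 0.34 in null libraries.

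**Figure D4:**
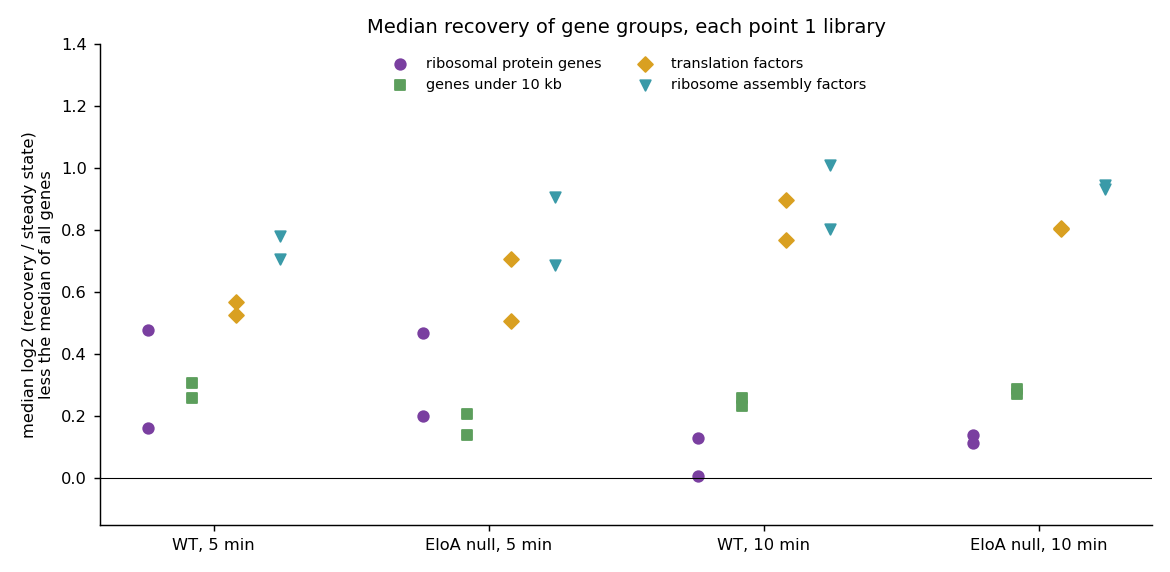
Median log2 ratio of recovery to steady state less the median of all genes, for the ribosomal protein genes, genes spanning under 10 kb, translation factors and ribosome assembly factors; each point is 1 library, 2 per genotype and time. Ribosomal protein genes lie below both factor lists in every library, most clearly at 10 min.

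The share of a library's reads that fell in 86 members was 0.371% to 0.442% in steady state, 0.282% to 0.348% at 5 min and 0.447% to 0.526% at 10 min. These ranges did not overlap between conditions. In steady state WT libraries held 0.405% and 0.371% and null libraries 0.442% and 0.410%, and at 10 min 0.465% and 0.447% against 0.526% and 0.494%, without overlap at either time. At 5 min the genotypes overlapped (0.314% and 0.322% against 0.282% and 0.348%).

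Members differed widely from each other in recovery, and their order was alike in both genotypes, which share no libraries. Across the 87 members, which share library depth and base composition within a table, the ratios of WT and null cells correlated with r = 0.96 (rho = 0.95) at 5 min and r = 0.96 (rho = 0.96) at 10 min. Rps27l, a relative of Rps27 that is induced by p53, was the highest member at 10 min in both genotypes. It went from 4.44 and 4.11 RPKM in WT steady state to 7.95 and 10.4 RPKM at 5 min and 9.49 and 10.2 RPKM at 10 min, a ratio 1.15 ± 0.16 (SD, n = 2) above all genes on the log2 scale. In null cells it went from 5.32 and 3.61 to 7.38 and 14.6 and then 11.2 and 13.0 RPKM (1.39 ± 0.20).

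Rpl5, which carries the 5S ribosomal RNA and binds Mdm2, went from 21.7 and 19.4 RPKM to 43.7 and 41.5 RPKM at 10 min in WT and from 22.2 and 17.5 to 46.7 and 44.5 RPKM in null cells. All recovery libraries at that time lay above all steady-state libraries, at 1.01 ± 0.03 and 1.17 ± 0.01 above all genes. Rps7, a small subunit protein that also binds Mdm2, was at 12.98 and 12.5 RPKM in WT steady state and 23.8 and 27.8 RPKM at 10 min (0.97 ± 0.24), and at 14.01 and 13.99 against 26.4 and 26.3 RPKM in null cells. The list of 9 members of the 5S particle and Mdm2 binding holds Rps27l, Rpl5 and Rps7 and had medians of 0.32 and 0.31 above all genes in WT and 0.46 and 0.33 in null libraries at 10 min. At 5 min it stood 0.49 and 0.83 above all genes in WT, with 8 and 9 of its 9 genes above the median gene. Of all 87 members, 57 and 65 were above it in these libraries. In the null libraries the list stood 0.55 and 0.83 above all genes, with 7 and 9 of its genes above the median gene, against 52 and 65 members. Rpl5 overlaps Dipk1a, and reads of the partner gene were not separated.

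At the lower end, Rpl36 had the lowest ratio at 10 min, from 3.53 and 3.26 RPKM to 1.53 and 0.704 RPKM in WT, on 13 and 7 reads, and its null libraries ranged from 5 to 25 reads. Rpl37rt was at 1.16 ± 0.27 under all genes in WT. At 5 min the 2 lowest members in WT were Rpl36a (4.37 and 3.64 RPKM against 13.5 and 11.6 RPKM in steady state) and Rplp1 (7.30 and 8.16 RPKM against 22.4 and 23.6 RPKM). Rpl36a had reached 9.84 and 9.05 RPKM at 10 min, and Rplp1 15.4 and 12.9 RPKM.

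The stalk genes also differed from each other. In WT at 10 min Rplp2 was 0.52 ± 0.46 and Rplp0 0.31 ± 0.12 above all genes, while Rplp1 was 0.74 ± 0.09 below. Rplp1 spans 1228 bases, Rplp2 3709 and Rplp0 4263. Members under 2000 bases had a median of -0.38 in WT at that time. Those of 3000 to 4000 bases had 0.19 and those of 4000 to 6000 bases 0.24. The part of length in the stalk genes was not tested. The most highly transcribed members did not lead: Rpl3 went from 73.2 and 56.9 RPKM to 43.9 and 27.0 RPKM at 5 min and 68.6 and 55.8 RPKM at 10 min, and Rps12 from 55.2 and 49.1 to 38.1 and 37.9 and then 44.6 and 40.7 RPKM. Of the chromosome 14 genes, Rpl15 was 0.19 and Rps24 0.60 above all genes in WT at 10 min, and 0.14 and 0.58 in null cells.

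The intronless members had some of the highest ratios at 5 min. At that time Rpl32l was at 3.60 and 8.27 RPKM in WT and 3.83 and 7.14 RPKM in null libraries, and Rps4l at 6.58 and 15.7 RPKM and 5.89 and 16.1 RPKM, so the second library of each genotype held more than the first. By 10 min Rpl32l was at 1.17 and 1.46 RPKM in WT, under its steady-state values. Rpl10l was at 6.45 and 8.88 RPKM at 5 min against 4.25 and 4.27 RPKM in steady state. These values come from exons, where near-identical copies can share reads.

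The order at 10 min went with length. The rank correlation of the recovery ratio with the span was 0.38 in both genotypes at 10 min, and -0.03 in WT and 0.03 in null cells at 5 min, over 87 members. In WT at 10 min the 15 members under 2000 bases were 0.38 below all genes in the median and the 7 members of 6000 bases or more were 0.61 above. In null cells these medians were -0.14 and 0.59. GC content went the other way (rho = -0.34 in WT and -0.40 in null cells at 10 min). The 2 properties are themselves related among members (rho = -0.28), and their parts were not separated here.

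**Figure D5:**
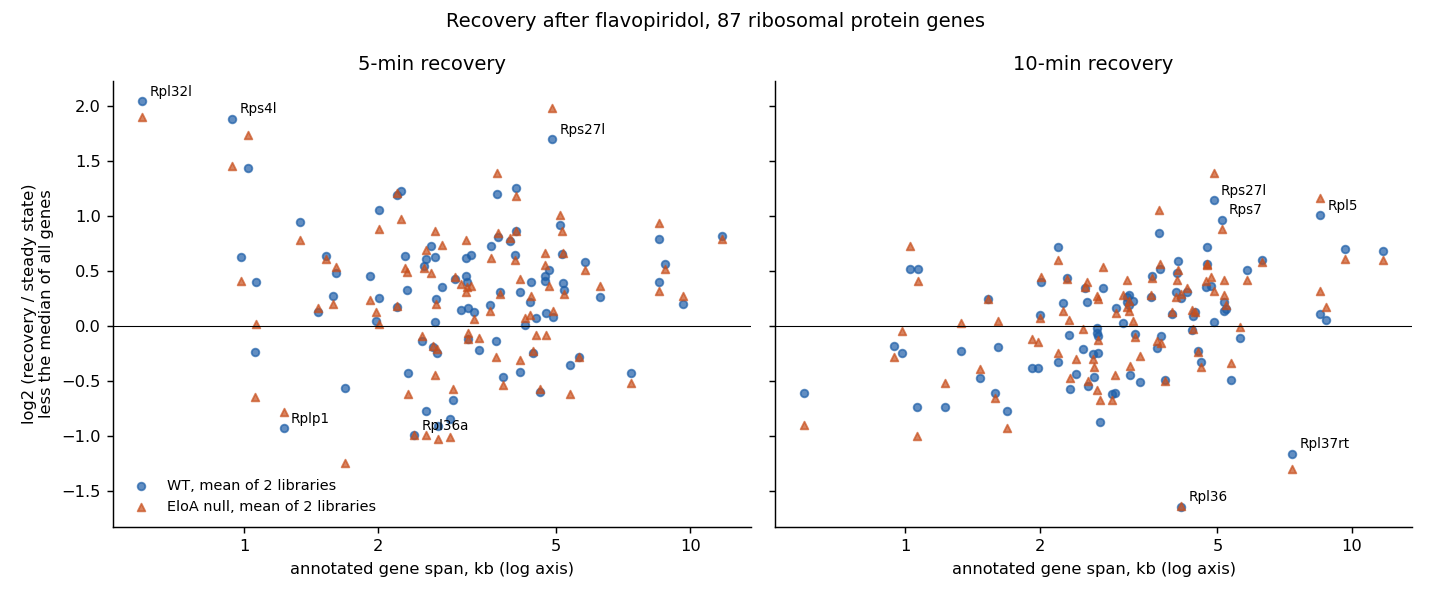
Recovery ratio of 87 members (log2 of recovery over steady-state RPKM, less the median of all genes) against annotated span in kb on a log axis, at 5 min and 10 min; circles are WT and triangles EloA null, each the mean of 2 libraries, and the 3 highest and 2 lowest WT members are named. At 10 min short members lie lower and Rps27l, Rpl5 and Rps7 lead, and at 5 min no trend with span is seen.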

How the data were processed

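Bru-seq libraries of 12 cultures were analysed, 2 for each genotype and condition, described as independent experiments; p-values measure the spread between these. Per the labels and methods, the authors aligned reads to mm10 and dm3 with Bowtie2 2.3.4.3, kept unique alignments with SAMtools, counted reads over whole RefSeq genes with featureCounts 1.6.1 and computed the deposited RPKM values with edgeR. The RefSeq release and the use of strand in counting are not given in the sources used here. Messenger RNA had been depleted with oligo d(T) before sequencing. The Drosophila spike-in was not used, so changes are relative to the library total. The tables' means and fold changes made by the authors were not used.

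From these values, log2(RPKM + 0.1) was fitted per condition for genes with a mean over 0.5 RPKM in WT or null cells with limma 3.58.1 (R 4.3.3, empirical Bayes with intensity trend), with Benjamini-Hochberg adjustment over all tested genes; a ratio of mean RPKM over 1.5 was counted separately. With 2 libraries against 2, an exact permutation test cannot go below p = 0.333, so none was run. Fold changes on this scale understate those of low genes. Scripts were tested on simulated data. Genes were matched to RefSeq on GRCm38.p6, the mm10 assembly, by symbol (24420 rows) or older symbol (423). Library sizes and reads were recovered from the steps between RPKM values, and cover counting error only. Members and lists were chosen with earlier results of these data known. Named genes are Rpl36a, Rpsa and the stalk genes, the 5 highest and 5 lowest in WT steady state, the 3 largest and 3 smallest ratios per comparison, paralogs, chromosome 14 members, the 3 highest and 3 lowest in recovery, members not tested, and the 2 largest changes of the other lists; Rpl32 and the genes named as lowest or highest at 5 min of recovery were chosen after their values were seen. Alternatives were other pseudocounts, no filter, centring, quantile normalization, removal of GC or length trends, other variance models, other limits, subsets of members and leaving out each library. Results of 2 genes that the rule names are not reported here.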

Additional observations from a re-analysis of the deposited data

How the results depend on the processing

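No member passed an adjusted p of 0.05 by limma in any comparison or setting. The member median less that of all genes (log2, EloA null over WT) was 0.13 in steady state, 0.01 at 5 min and 0.12 at 10 min; it became 0.043, -0.0044 and 0.029 with the GC trend removed and -0.027, -0.050 and -0.092 with the length trend removed. Against genes under 10 kb, a comparison chosen after seeing the data, it was -0.0047, -0.050 and -0.071, and against such genes with over 5 RPKM 0.076, -0.057 and 0.018. At 5 min it was -0.0073 with a pseudocount of 1, -0.018 without a filter and -0.031 after quantile normalization, and at 10 min 0.150 without a filter and 0.139 after quantile normalization. The members past 1.5-fold numbered 1, 0 and 1; they were 0 in steady state and at 10 min with the length trend removed, at a limit of 2-fold and without chromosome 14 members, 0 at 10 min with medians centred, 1 at 5 min and 2 at 10 min without a filter, and 13, 7 and 24 at the lowest limit tried. Apart from these limits and the trends removed, the cause of each move was not tested.

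Leaving out 1 library gave medians of 0.102 to 0.119 in steady state, -0.097 to 0.160 at 5 min (-0.062 without the first WT and -0.097 without the second null library) and 0.109 to 0.161 at 10 min, and counts past 1.5-fold of 2 to 3, 2 to 6 and 3 to 5. In steady state Rpl30 ranged from -0.336 to 0.068 (0.068 without the second null library), Rps27 from -0.254 to 0.135 (0.135 without the first null library) and Rps4l from -0.089 to 0.972 (-0.089 without the second null library). Rps27 at 5 min ranged from -0.881 to 0.036 and Rpl29 at 10 min from -0.292 to 0.077, each positive without the first null library. A lone library was assumed to vary like the other group.

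The recovery medians above all genes were 0.32 and 0.07 in WT and 0.33 and 0.13 in null cells at 5 and 10 min. They were 0.091 and 0.030 at 5 min with a pseudocount of 1; without a filter -0.030 and 0.185 in WT and -0.075 and 0.241 in null cells; against genes under 10 kb 0.037 and -0.178 in WT and -0.153 in null cells at 10 min; and from summed RPKM -0.183 and -0.299 in WT and -0.229 and -0.281 in null cells. Leaving out 1 library gave 0.164 to 0.477, 0.007 to 0.129, 0.201 to 0.469 and 0.101 to 0.192. The median percentile of 97.7 was 98.8 without a filter, 97.8 for established members, 97.2 without snoRNA hosts, and 97.67 to 97.72 without 1 library.

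The replicate numbers are only shared: with 2 pairs, replicate differences correlated between genotypes at 0.10, 0.12 and 0.10. With the replicate number as a block 0 members passed in each comparison, while 128 genes did at 5 min and 0 in the others, and 14, 2 and 33 members had an unadjusted p under 0.05. Over all genes, a spread shared by 12 libraries called 132, 532 and 264 genes, a robust variance 81, 29 and 26, and no intensity trend 20, 47 and 49. By depth, Rpl36 at 10 min rested on 5 to 25 reads a library.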
